A study of Homo sapiens with 6 samples.

Results

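YAP1 and WWTR1 (the gene of TAZ), the kinases and angiomotins that restrain their proteins and 3 genes they are known to drive were followed in T24 cells exposed to MAP30. The 10 genes were YAP1, WWTR1, LATS1, LATS2, AMOT, AMOTL1, AMOTL2, ANKRD1, CCN1 and CCN2, chosen by name. The choice was made with earlier results of these data known. Every probe set annotated to exactly 1 of them was used, which gave 34 of the 49395 probe sets and 10 of the 18132 named genes, and all 10 were measured. T24 is an established human cell line from a urothelial carcinoma of the bladder. The treated cells, on 3 arrays, received MAP30, a ribosome-inactivating protein of bitter melon, at 10 µg/ml and were harvested after 48 hours. The other 3 arrays hold T24 cells labelled normal, here called control, for which the labels give neither vehicle nor duration. Both groups were grown in DMEM with fetal bovine serum. Whether the replicates were separate cultures is not stated, and p-values therefore reflect the spread among these 6 arrays, which may be technical.

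YAP and TAZ are transcriptional coactivators that do not bind DNA themselves. They act mainly through the TEAD transcription factors. The kinases LATS1 and LATS2, at the end of the Hippo cascade, phosphorylate both proteins, which holds them in the cytoplasm and marks them for breakdown. Angiomotins bind YAP and TAZ at junctions and actin filaments. LATS2 and AMOTL2 are also known as genes that YAP and TAZ drive, a negative feedback. Much of this control acts on the proteins, whereas the arrays measured RNA.

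With MAP30 the RNA of ANKRD1, AMOTL2, LATS2, LATS1, CCN2 and CCN1 rose, and that of AMOT, WWTR1 and AMOTL1 fell. The rise was 22.0-fold for ANKRD1, 3.18-fold for AMOTL2 and 2.55-fold for LATS2, and the fall was 1.64-fold for AMOT. YAP1 as a mean over its 8 probe sets stood at a log2 fold change of 0.005 ± 0.032 (SE, n = 3 per group) and did not pass, with 3 of its probe sets higher and 5 lower. In all, 9 of the 10 members passed the test, where 57.5% of the genes tested passed. Members and lists were chosen with earlier results of these data known. The shares of all genes, here and below, therefore give scale only and do not test the members as a group. Of the members 6 were higher, against 26.9% of genes, and 3 were lower, against 30.6% of genes. By probe set 31 of 34 passed, against 56.3% of all probe sets.

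The promoters of 4 members that rose are shown, chosen after the search, because each holds the letters GGAATG, or CATTCC on the other strand, the core that TEAD factors bind. The sequences are RefSeq's on GRCh38.p14, from 250 bases before the gene's start through its first 50 bases, written 5′ to 3′ along the gene, and capitals mark the match. They span the start of each gene, all on the minus strand, at chr10:90921038-90921337 for ANKRD1, chr6:131951323-131951622 for CCN2, chr3:134374398-134374697 for AMOTL2 and chr13:21061537-21061836 for LATS2.
ANKRD1: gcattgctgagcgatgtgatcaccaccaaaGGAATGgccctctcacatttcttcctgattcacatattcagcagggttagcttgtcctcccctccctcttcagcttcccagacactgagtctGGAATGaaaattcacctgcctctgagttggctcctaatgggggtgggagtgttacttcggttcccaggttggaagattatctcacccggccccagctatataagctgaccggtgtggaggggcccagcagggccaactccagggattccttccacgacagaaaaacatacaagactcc
CCN2: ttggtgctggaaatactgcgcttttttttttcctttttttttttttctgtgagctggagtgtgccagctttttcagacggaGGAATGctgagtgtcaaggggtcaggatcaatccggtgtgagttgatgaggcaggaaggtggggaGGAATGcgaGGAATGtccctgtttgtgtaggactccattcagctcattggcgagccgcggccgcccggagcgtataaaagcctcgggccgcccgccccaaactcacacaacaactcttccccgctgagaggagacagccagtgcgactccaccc
AMOTL2: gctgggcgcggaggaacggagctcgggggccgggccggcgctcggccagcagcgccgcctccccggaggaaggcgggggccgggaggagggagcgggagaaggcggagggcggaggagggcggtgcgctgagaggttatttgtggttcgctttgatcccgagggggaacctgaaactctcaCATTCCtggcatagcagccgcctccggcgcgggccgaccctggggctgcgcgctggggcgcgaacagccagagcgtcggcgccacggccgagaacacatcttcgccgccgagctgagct
LATS2: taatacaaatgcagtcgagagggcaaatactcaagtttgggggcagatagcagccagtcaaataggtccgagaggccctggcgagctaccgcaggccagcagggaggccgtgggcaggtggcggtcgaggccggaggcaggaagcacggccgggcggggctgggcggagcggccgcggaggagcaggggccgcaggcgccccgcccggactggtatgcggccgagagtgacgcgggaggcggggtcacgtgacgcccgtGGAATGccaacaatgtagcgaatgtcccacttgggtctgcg

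CCN2 held 3 matches, with first bases 169, 104 and 95 bases before the start. ANKRD1 held 2, at 220 and 128 bases before the start. AMOTL2 held 1 at 69 bases before the start, in 1 of its 2 windows, and LATS2 held 1 that began at base 10 after it. YAP1, whose probe sets split, held 1 at 162 bases before its start. No match lay in the windows of WWTR1, AMOT, AMOTL1 or LATS1, which says only that these letters are not there. Of 35116 promoter windows of the same length in the table, 14.03% held at least 1 match, 1.37% at least 2 and 0.128% at least 3. The letters TGANTCA, a loose form of the AP-1 site in which N is any base, were also searched. ANKRD1 held them as TGATTCA, 195 bases before the start. LATS1 held them as TGAATCA in 1 of 2 windows, 245 bases before the start. Of all windows, 7.71% held TGANTCA. A CArG box, the site of serum response factor, was in none of the members' 12 windows and in 1.29% of all windows. Windows were at hand for 9 of the 10 members, not for CCN1. A match is a description of the letters, and binding was not measured.

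The values are log2 expression on a scale where the 6 arrays of each probe set have a median of 0, as deposited. No member can therefore be called abundant or scarce, levels of 2 genes cannot be compared, and the urothelial identity of the cells could not be checked against markers. Only differences between arrays carry meaning. Of 9 measured markers of leukocytes, endothelium and fibroblasts, COL1A1 was higher (0.14) and CD14 lower (-0.26), and 7 did not pass. Of all genes tested, 57.5% passed. COL1A1 did not pass with hybridization-control centring (-0.06) or without control replicate 1 or 2 or MAP30 replicate 2 or 3 (0.12 to 0.14), and CD14 did not with poly-A-control centring (-0.10). PTPRC stood at 0.03, PECAM1 at -0.02 and COL3A1 at 0.02. In bulk RNA, fewer cells that express a gene and less RNA per cell cannot be told apart. Over all genes the log2 fold change had a median of -0.02 in the deposited values, -0.23 after centring every array on spiked-in hybridization controls and 0.14 after centring on poly-A controls, so small changes depend on the scale. The log2 ratio of 3' over 5' probe sets of ACTB, a sign of RNA integrity, was taken from these centred values. Its level therefore has no meaning, and only its difference between groups does. The centred ratio averaged 0.08 ± 0.01 on MAP30 arrays and -0.08 ± 0.02 on control arrays (SD, n = 3 each), a difference of 0.16. For GAPDH the difference was 0.04. A two-sided exact permutation test gave p = 0.1 for each gene, the smallest that 3 against 3 arrays allow. The part of RNA integrity in the results below was not tested.

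**Figure D1:**
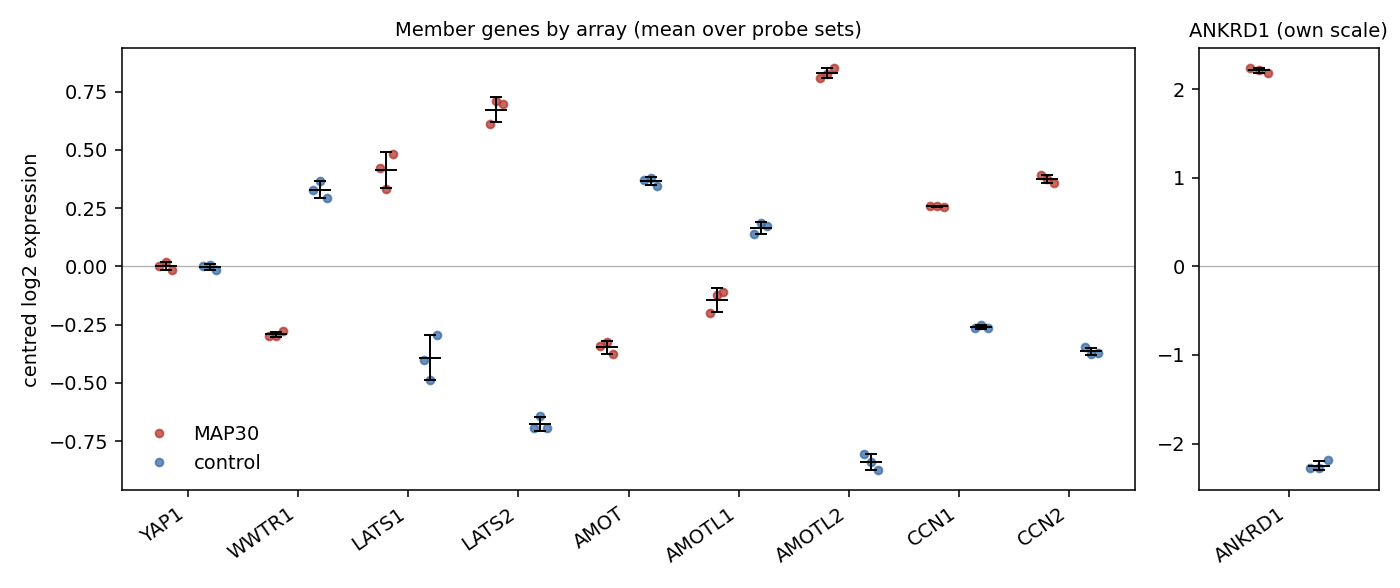
Centred log2 expression of the 10 member genes (mean over the probe sets of each gene) on each array, with MAP30 (red) left of control (blue); black marks give the mean ± SD of 3 arrays, and ANKRD1 has its own axis. The groups lie apart in every gene but YAP1, where both sit near 0.

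The downstream genes among the members, ANKRD1, CCN2 and CCN1, were all higher. ANKRD1 encodes an ankyrin repeat protein of muscle sarcomeres and nuclei that many cell types raise on stretch or injury. Its single probe set read 2.24, 2.21 and 2.19 on MAP30 arrays, against -2.28, -2.28 and -2.19 on control arrays. No array came near the other group, and the log2 fold change was 4.46 ± 0.04 SE (limma, Benjamini-Hochberg adjusted p = 2.98e-09), at rank 9 of the rises among 18132 genes. With quantile normalization the value was 3.52. One probe set carries this result, so no second one can be set beside it.

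CCN2 encodes connective tissue growth factor, a secreted matrix-associated protein. Averaged over 3 probe sets it read 0.39, 0.37 and 0.36 on MAP30 arrays, against -0.35, -0.38 and -0.37 on control arrays, so the groups were clearly apart with little spread. The log2 fold change was 0.74 ± 0.03 SE (adjusted p = 5.7e-07), a 1.67-fold rise, and its probe sets ran from 0.66 to 0.81. CCN1, which encodes the related matrix protein CYR61, read 0.26 on each of the 3 MAP30 arrays, against -0.27, -0.25 and -0.27 on control arrays. Its rise was 1.43-fold (0.52 ± 0.03 SE, adjusted p = 2.92e-06), with 0.48 and 0.56 at its 2 probe sets, and it stood at 0.31 with hybridization-control centring. All 6 probe sets of the 3 genes were higher. Against 4.46 for ANKRD1, both CCN genes lay below the 95th percentile of all genes' log2 fold changes, which was 1.04.

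Among the angiomotins the direction differed by gene. AMOTL2 read 0.81, 0.83 and 0.85 on MAP30 arrays, against -0.81, -0.84 and -0.88 on control arrays. It rose by a log2 fold change of 1.67 ± 0.04 SE (adjusted p = 2.61e-08), and its 3 probe sets all rose, by 1.33, 1.65 and 2.03. AMOT, the founding member, for which the family is named, moved the other way. It read -0.34, -0.32 and -0.38 on MAP30 arrays, against 0.37, 0.38 and 0.35 on control arrays, a log2 fold change of -0.71 ± 0.03 SE (adjusted p = 8.46e-07).

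The 4 probe sets of AMOT were not alike in size. They stood at -1.37, -0.96, -0.38 and -0.14. The last did not pass (adjusted p = 0.0553), although all 3 of its MAP30 arrays lay below its control arrays, and it passed without MAP30 replicate 2 (-0.18, adjusted p = 0.0319) and with hybridization-control centring (-0.35, adjusted p = 0.00106). AMOTL1 read -0.20, -0.13 and -0.11 on MAP30 arrays, against 0.14, 0.19 and 0.17 on control arrays, with a log2 fold change of -0.31 ± 0.04 SE (adjusted p = 0.000222). Its probe sets disagreed: 11725706_s_at at -0.96 and 11725705_a_at at -0.59 were lower, 11725707_a_at at 0.30 was higher, and 11725704_a_at at -0.001 did not pass. As a gene mean, the call of AMOTL1 depended on the _s_at probe set. Over its _at and _a_at probe sets alone the mean was -0.10 and did not pass (adjusted p = 0.0982). Those 3 probe sets include 11725705_a_at, which was lower by itself, and 11725707_a_at, which was higher. With centring on poly-A controls AMOTL1 was at -0.15 and on hybridization controls at -0.52, where 11725707_a_at stood at 0.10 and did not pass.

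Both LATS kinases rose. LATS2 read 0.61, 0.71 and 0.70 on MAP30 arrays, against -0.69, -0.64 and -0.70 on control arrays. Its log2 fold change was 1.35 ± 0.04 SE (adjusted p = 1.02e-07), and its probe sets stood at 1.68, 1.67 and 0.70, all higher. LATS1 read 0.42, 0.33 and 0.48 on MAP30 arrays, against -0.40, -0.49 and -0.29 on control arrays. Its groups did not overlap either, but its arrays spread more than those of any other member, with an SE of 0.061 about a log2 fold change of 0.81 (adjusted p = 1.21e-05). Of its 3 probe sets, 11745334_a_at (1.06) and 11751496_a_at (1.02) were higher. The third, 11740127_a_at, stood at 0.34 and did not pass (adjusted p = 0.0721). It read 0.48, -0.05 and 0.36 on MAP30 arrays, against 0.01, -0.21 and -0.01 on control arrays, so that MAP30 replicate 2 fell within the control range. Without that array it was at 0.49 and passed (adjusted p = 0.00246).

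**Figure D2:**
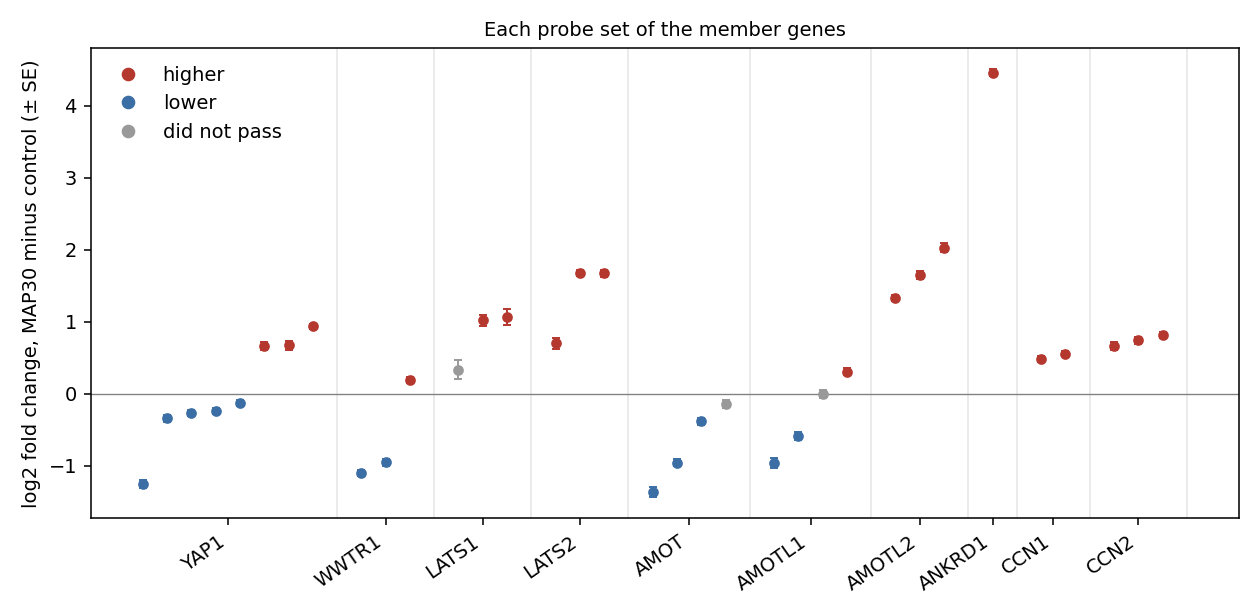
Log2 fold change (MAP30 minus control, ± SE, n = 3 per group) of each of the 34 probe sets, grouped by gene and ordered by size within it; red passed as higher, blue as lower, grey did not pass. YAP1, WWTR1 and AMOTL1 have probe sets on both sides of 0, whereas those of LATS2, AMOTL2, CCN1 and CCN2 all lie above it.

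The effector genes were the least uniform. WWTR1 as a mean read -0.30, -0.30 and -0.28 on MAP30 arrays, against 0.33, 0.36 and 0.29 on control arrays. The groups were apart, and the log2 fold change was -0.62 ± 0.03 SE (adjusted p = 2.11e-06). Its probe sets 11759483_at (-1.10) and 11759482_at (-0.95) fell, while 11755099_a_at rose by 0.19 (adjusted p = 0.007). With centring on hybridization controls the last stood at -0.02 and did not pass. As a median over probe sets WWTR1 was at -0.95.

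YAP1 had no single direction. Probe set 11717922_a_at read -0.64, -0.69 and -0.58 on MAP30 arrays, against 0.60, 0.68 and 0.58 on control arrays, a log2 fold change of -1.26 ± 0.05 SE (adjusted p = 5.72e-07). Probe set 11717925_s_at did the opposite, at 0.47, 0.45 and 0.49 on MAP30 arrays, against -0.45, -0.47 and -0.48 on control arrays (0.94 ± 0.04 SE, adjusted p = 7.08e-07). In both, the arrays of the 2 groups were far apart with a narrow spread within each. The other probe sets that rose were 11717924_a_at (0.67) and 11746496_a_at (0.67), and the others that fell were 11717920_a_at (-0.34), 11740548_a_at (-0.27), 11717921_x_at (-0.24) and 11717923_s_at (-0.12). All 8 passed as deposited, the last narrowly (adjusted p = 0.0299), and it was lost without any 1 array other than control replicate 2 (adjusted p from 0.0597 to 0.0951), and with quantile normalization (-0.10, adjusted p = 0.0643). With centring on poly-A controls it stood at 0.04, 11717921_x_at at -0.08 and 11740548_a_at at -0.11, and none of these 3 passed.

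The summary value of YAP1 therefore depended on how its probe sets were joined. As a median it was -0.18 (adjusted p = 0.00192), and over its _at and _a_at probe sets it was -0.11 (adjusted p = 0.0424). With hybridization-control centring it was -0.20 (adjusted p = 0.00605) and with poly-A-control centring 0.17 (adjusted p = 0.00459). Which transcripts each probe set reports was not analysed here. Opposite calls among probe sets of 1 gene were found in 3 of the 9 members with more than 1 probe set (YAP1, WWTR1 and AMOTL1). The same held for 7.24% of the 11734 genes with more than 1 probe set and for 28% of the 300 genes with 8 or more. Over the members' 34 probe sets, 19 were higher and 12 were lower, where 26.2% and 30.1% of all probe sets were. The groups did not overlap in 32 of the 34, against 61.9% of all probe sets.

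Related members were compared as the difference between their values within each array, in 6 pairs. Each probe set was centred, so the level and sign of such a value within a group carry no meaning. Only its difference between groups does. LATS2 minus LATS1 averaged 0.26 ± 0.10 on MAP30 arrays and -0.28 ± 0.12 on control arrays (SD, n = 3 each), a difference of 0.545 with a 95% interval, from the pooled SD, of 0.29 to 0.80. AMOTL2 minus AMOT differed by 2.38 (2.30 to 2.47) and AMOTL2 minus AMOTL1 by 1.98 (1.88 to 2.08). The paralogs that both fell, AMOTL1 and AMOT, differed by 0.40 (0.29 to 0.51). WWTR1 minus YAP1 differed by -0.625 (-0.69 to -0.56), though the YAP1 value is a mean over probe sets of opposite direction. CCN2 minus CCN1 differed by 0.22 (0.17 to 0.27). In each pair all MAP30 arrays lay beyond all control arrays. The two-sided exact permutation test gave p = 0.1 in each, adjusted p = 0.1 over 6 pairs, the smallest value that 3 against 3 arrays allow, so no pair could reach 0.05.

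**Figure D3:**
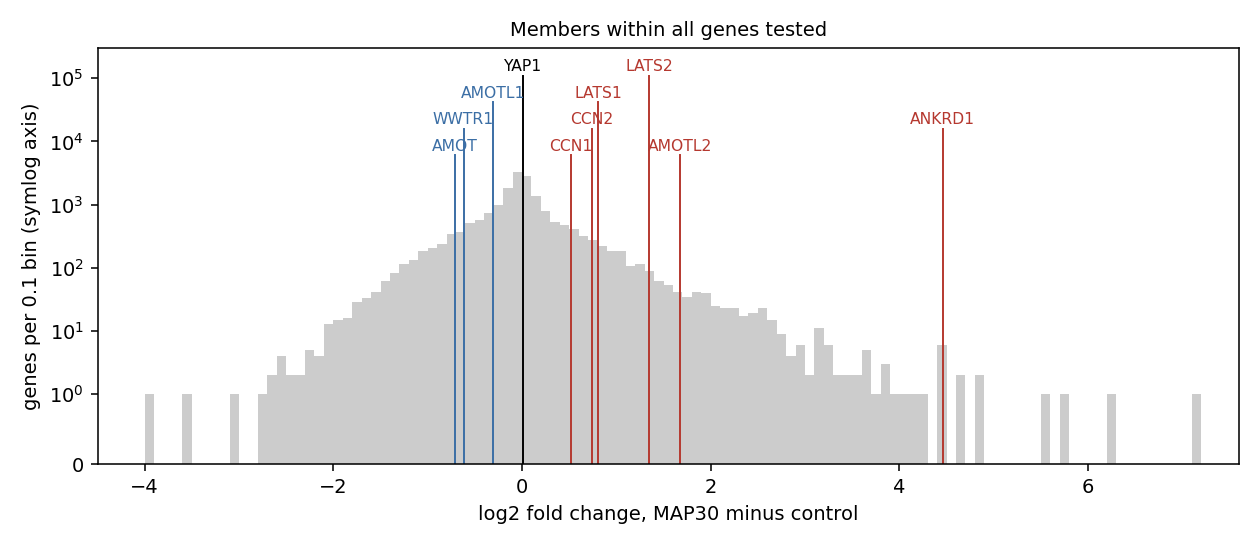
Distribution of log2 fold changes (MAP30 minus control) of all 18132 genes, counted in bins of 0.1 on a symmetric log axis, with lines at the 10 members; red passed as higher, blue as lower, black did not pass. ANKRD1 at 4.46 lies in the far upper tail, AMOTL2 at 1.67 and LATS2 at 1.35 above the 95th percentile of 1.04, and the members that fell lie above the 5th percentile of -0.92.

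At least a 2-fold rise was met by 3 of the 10 members, ANKRD1, AMOTL2 and LATS2, and by 5.42% of all genes, and a 2-fold fall by 0 members and 4.13% of genes. By probe set, 8 of the 34 rose at least 2-fold, against 6.14% of all, and 3 fell as much, against 5.37%. The groups did not overlap in 9 of the 10 genes, against 62.6% of all genes. The log2 fold change had a median of 0.63 over the members and of -0.02 over all genes.

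The other genes of the pathway are given by list, beside the 26.9% of all genes that were higher, the 30.6% that were lower and the 57.5% that passed either way. All genes were 17.0% higher and 63.7% lower with hybridization-control centring, and 49.1% higher and 20.7% lower with poly-A-control centring, so list counts under these scalings move with the scale. Of 17 measured kinases and adaptors upstream of LATS, 9 were higher and 4 lower (median log2 fold change 0.22). The kinases MAP4K5 (1.36 ± 0.03 SE), TAOK3 (1.09 ± 0.04 SE) and TNIK (0.64 ± 0.07 SE) rose most. MOB1A, which encodes an activating partner of LATS, fell 2.43-fold (-1.28 ± 0.04 SE) at all 5 of its probe sets, while its paralog MOB1B was higher (0.35 ± 0.04 SE). MOB1A read -0.67, -0.60 and -0.64 on MAP30 arrays, against 0.68, 0.61 and 0.65 on control arrays. MAP4K4 (-0.58) and STK3 (-0.41), which encodes the kinase MST2, also fell. The paralog of STK3, STK4, was higher (0.37 ± 0.04 SE), with 5 of its 6 probe sets higher and 1 lower. NF2, the gene of the upstream adaptor merlin, stood at 0.01 and did not pass. With hybridization-control centring 6 were higher and 8 lower, against 17.0% and 63.7% of all genes.

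Of 15 polarity, junction and LIM-domain adaptor genes, 8 were higher and 6 lower (median 0.15), against 26.9% and 30.6% of all genes. PTPN14 (1.96 ± 0.07 SE), a phosphatase that binds YAP, TP53BP2 (1.82 ± 0.04 SE), the gene of ASPP2, and FRMD6 (1.54 ± 0.04 SE), a junctional FERM-domain adaptor, rose most. SCRIB (-0.93 ± 0.04 SE), a cell polarity scaffold, LIMD1 (-0.45 ± 0.05 SE), a LIM protein that binds LATS, and FAT4 (-0.29 ± 0.05 SE), a giant cadherin, fell. For LIMD1 the fall came from 1 of 2 probe sets, and over class _at or _a_at alone it was 0.09 and did not pass. FAT4 was -0.14 and did not pass with that class alone. With poly-A-control centring 8 of this list were higher and 3 lower, against 49.1% and 20.7% of all genes.

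Among 12 measured enzymes that modify or degrade YAP, TAZ, LATS or angiomotins, 9 were higher and 3 lower (median 0.475), against 26.9% and 30.6% of all genes. The ubiquitin ligase genes NEDD4L (1.73 ± 0.03 SE) and NEDD4 (1.24 ± 0.05 SE) rose most, followed by TNKS (0.67 ± 0.05 SE), the gene of tankyrase, which marks angiomotins for breakdown. Of the 4 probe sets of TNKS, 3 were higher and 1 was lower. The ligase genes SIAH2 (-0.73 ± 0.04 SE) and WWP1 (-0.43 ± 0.04 SE) fell, as did FBXW11 (-0.40 ± 0.03 SE), which encodes a substrate receptor of a ligase. NEDD4L read 0.85, 0.88 and 0.84 on MAP30 arrays, against -0.86, -0.88 and -0.88 on control arrays, so the groups were far apart.

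TEAD and VGLL genes, the DNA-binding partners and their cofactors, were 2 higher, 2 lower and 4 not passing of 8 (median -0.01), where 57.5% of all genes passed. TEAD2 fell 2.04-fold (-1.03 ± 0.06 SE) and TEAD3 1.49-fold (-0.575 ± 0.031 SE). TEAD1 (0.11) and TEAD4 (0.02) did not pass, and without MAP30 replicate 2 TEAD1 passed at 0.14 (adjusted p = 0.04), as it did with quantile normalization (0.14, adjusted p = 0.0292). VGLL3 was higher (1.20 ± 0.04 SE), but its probe sets ran from -0.135, not passing, through 0.68 to 3.06, and the only one of class _at was the one that did not pass. VGLL4, a repressor of TEAD factors, stood at 0.21 with 2 probe sets higher and 1 lower, and at -0.003 without passing with hybridization-control centring. VGLL1 (-0.17) and VGLL2 (-0.04) did not pass. With hybridization-control centring 1 of the 8 was higher and 5 were lower, and with poly-A-control centring 4 were higher and 2 lower, each beside the shares of all genes given above for that scale.

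Of 17 other genes that published signatures count as YAP/TAZ targets, 8 were higher, 4 lower and 5 did not pass (median 0.18), where 57.5% of all genes passed. GADD45A, a growth arrest gene that p53 and stress signals also raise, rose 5.34-fold (2.42 ± 0.04 SE), and PTPN14, which stands in both lists, 3.89-fold. The RNA-binding protein gene RBMS3 (1.35 ± 0.04 SE) came next. FOXF2 (-0.71 ± 0.08 SE), a forkhead factor, FJX1 (-0.25 ± 0.05 SE) and ASAP1 (-0.17 ± 0.03 SE) fell. Of the 4 probe sets of ASAP1, 3 were lower and 1 was higher. With poly-A-control centring FJX1 (-0.09) and ASAP1 (-0.01) did not pass. AXL, a receptor tyrosine kinase often used as a readout of YAP, stood at 0.04 and did not pass. With poly-A-control centring 13 of the 17 were higher and 1 lower, against 49.1% and 20.7% of all genes. Hybridization-control centring gave 7 higher and 7 lower, against 17.0% and 63.7%.

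Of 5 measured relatives of the downstream genes 1 was lower and 4 did not pass. CCN4 (-0.01), CCN5 (0.13), CCN6 (0.01) and ANKRD2 (-0.08) did not pass. CCN3 was lower at -0.13 (adjusted p = 0.0395), a call lost without any 1 array other than MAP30 replicate 3, at -0.11 to -0.15, and with quantile normalization at -0.11. Of 15 measured genes of serum response factor and its MRTF coactivators, which share target genes with YAP, 9 were higher and 5 lower (median 0.21), against 26.9% and 30.6% of all genes. TAGLN (0.71 ± 0.04 SE), an actin-binding protein gene, ZYX (0.48 ± 0.04 SE) and FHL2 (0.48 ± 0.04 SE) rose most. The tropomyosin genes TPM2 (-0.34 ± 0.04 SE) and TPM1 (-0.29 ± 0.03 SE) and MRTFB (-0.27 ± 0.04 SE) fell. The fall of MRTFB came from 1 of 3 probe sets: as a median it was -0.03, and over class _at or _a_at 0.06, neither passing. TPM1 had 1 probe set higher and 5 lower of 9, and was -0.07 without passing over that class. With hybridization-control centring 3 of the 15 were higher and 6 lower, against 17.0% and 63.7% of all genes.

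**Figure D4:**
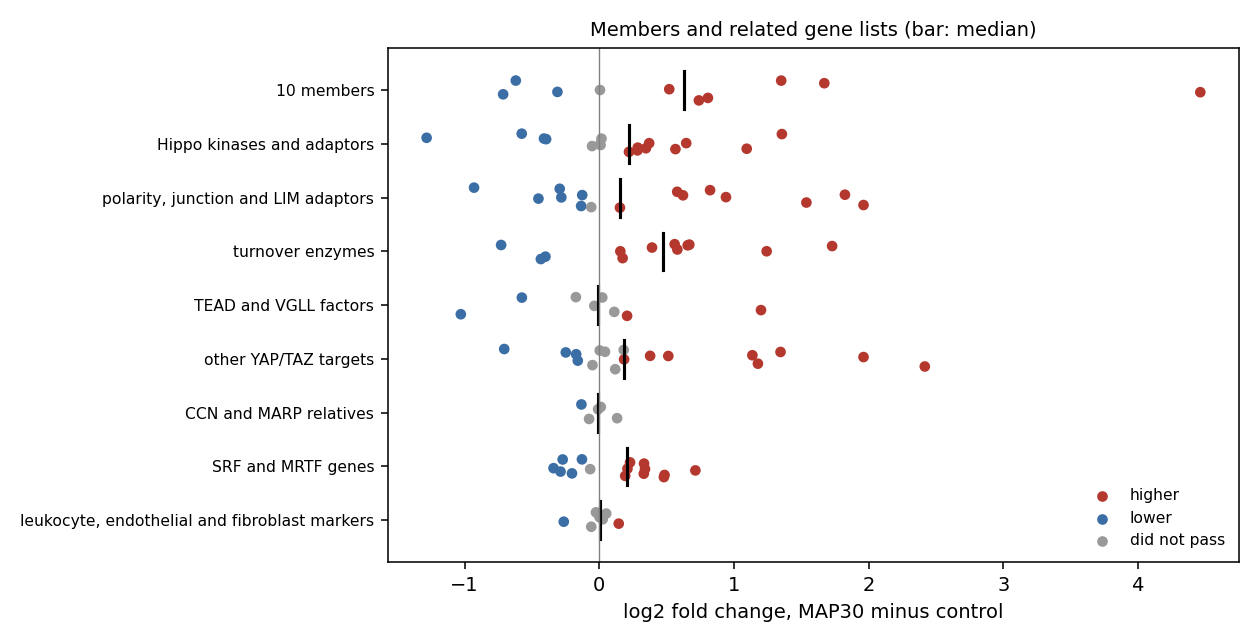
Log2 fold changes (MAP30 minus control) of the 10 members and of the genes in each related list, 1 point per gene with vertical scatter for legibility; red passed as higher, blue as lower, grey did not pass, and the black bar is the median. The lists hold genes on both sides of 0, and the medians run from -0.01 for the CCN and ankyrin relatives and the TEAD and VGLL genes to 0.63 for the members.

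The genes whose values over the 6 arrays lay nearest to those of ANKRD1, by Euclidean distance, were the histone gene H4C8 (distance 0.124) and the histone pseudogene H2BC20P (0.174), with log2 fold changes of 4.45 and 4.46. Nearest to AMOT were GALNT1 (0.036) and DNAJA1 (0.037), to WWTR1 NAA38 (0.03) and NR2C2 (0.041), and to YAP1 RPL23A (0.022) and UBQLN2 (0.024). Over 2 groups of 3 arrays such nearness mostly reflects a like fold change. The likeness to YAP1 is to a mean of probe sets that moved apart.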

How the data were processed

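Total RNA of T24 cells, 3 arrays with MAP30 and 3 control arrays, was turned into biotin-labelled RNA with a 3' amplification kit and hybridized to Affymetrix arrays, per the labels' protocols. The authors deposited log2 expression values for 49395 probe sets; RMA and MAS5 are named, without their role, per the submitters' processing notes. The base of the logarithm is not stated and was taken as 2, on which every fold change rests. Every probe set's median over the arrays is 0, to within 5.0e-07. Arrays have no read depth, and their number limits the precision.

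Gene names came from the platform annotation. Of the probe sets 44988 had 1 gene, 1832 several, 2473 none and 102 were controls. Genes were valued as the mean of their probe sets with 1 gene. Genes and, separately, all probe sets were fitted with limma (version 3.58.1, R 4.3.3; lmFit, eBayes), two-sided, with Benjamini-Hochberg adjustment over the whole table and a threshold of 0.05. Python 3.11.15 with scipy 1.17.1, pandas 2.3.3, numpy 2.4.6 and matplotlib 3.10.9 served for tables, permutation tests and plots. The fit was tested on simulated data. Alternatives were quantile normalization, centring on hybridization or poly-A controls, medians over probe sets, _at and _a_at probe sets alone, robust eBayes, a replicate block and leaving out each array. The members and lists were chosen with earlier results of these data known. Named were all members, up to 3 genes with the largest rise and 3 with the largest fall that passed in each other list, every gene of lists of up to 8, and the 2 nearest genes of 4 members. MOB1B, STK4, NF2, AXL and some markers were chosen after their values were seen.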

Additional observations from a re-analysis of the deposited data

How the results depend on the processing

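The replicate numbers did not pair the arrays: deviations from the group means correlated at -0.04, 0.07 and 0.01 for same-numbered arrays over 18132 genes. Under the replicate block 6 members were higher and 3 lower, as without it, and probe sets counted 20 and 11, with 11717923_s_at lost (adjusted p = 0.0703) and 11740127_a_at of LATS1 gained (adjusted p = 0.0104). The CCN3 call was lost too, leaving 0 CCN and ankyrin relatives lower. limma on the per-array pair differences with the block gave the same values, -0.625 for WWTR1 minus YAP1, 0.545 for LATS2 minus LATS1, 0.402 for AMOTL1 minus AMOT, 2.383 for AMOTL2 minus AMOT, 1.981 for AMOTL2 minus AMOTL1 and 0.22 for CCN2 minus CCN1. No p is given for this fit, since it pools the spread of 6 pair differences that share members. The pairs kept their direction under all alternatives run, but some of these could not change them. Centring on controls shifts both genes of a pair alike on each array. The block is balanced over the groups and leaves the differences as they were. Class _at or _a_at leaves LATS2 minus LATS1 and AMOTL2 minus AMOT as they were, since it holds all probe sets of these genes.

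Over the 9 members other than YAP1, 116 of 117 recomputed values kept direction and side of the threshold, the exception being AMOTL1 with class _at or _a_at. Part of this was fixed in advance, since the replicate block and robust eBayes leave every fold change as it was. ANKRD1, with a single probe set, likewise keeps its value as a median and with class _at or _a_at. Members higher ranged from 6 to 7 and lower from 3 to 4. YAP1 turned to -0.204 with hybridization-control centring, -0.181 as a median, -0.105 with class _at or _a_at, -0.002 without control replicate 3 and -0.004 without MAP30 replicate 2, and ran from -0.004 to 0.014 over arrays left out. Probe set 11725704_a_at of AMOTL1 was 0.017 with quantile normalization, 0.163 with poly-A-control centring and 0.012 to 0.032 without control replicate 1 (0.015), MAP30 replicate 1 or MAP30 replicate 2, within -0.047 to 0.032 over arrays left out. With poly-A-control centring 11717923_s_at was 0.038 and 11739350_a_at of AMOT 0.023; with hybridization-control centring 11755099_a_at of WWTR1 was -0.019. These scalings shift all genes one way by construction.

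Counts that moved over 1.5-fold with hybridization-control centring were upstream kinases and adaptors lower (8), TEAD and VGLL genes higher (1) and lower (5), other targets lower (7), CCN and ankyrin relatives lower (4) and SRF and MRTF genes higher (3). With poly-A-control centring they were adaptors lower (3), TEAD and VGLL genes higher (4), other targets higher (13) and lower (1), relatives higher (3) and lower (0) and SRF and MRTF genes lower (3). Relatives lower were 0 with quantile normalization and 0 to 1 over arrays left out. With class _at or _a_at, 1 TEAD or VGLL gene was higher and 1 SRF or MRTF gene lower.

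Single genes that changed sign with hybridization-control centring were CCN5 (-0.077), CCN6 (-0.198), COL1A1 (-0.064), TEAD1 (-0.098), TEAD4 (-0.187) and VGLL4 (-0.003). With poly-A-control centring they were ANKRD2 (0.088), CCN3 (0.031), CCN4 (0.155) and VGLL2 (0.127), with quantile normalization CCN4 (0.014), and with class _at or _a_at CCN4 (0.021), CCN6 (-0.015), LIMD1 (0.09), MRTFB (0.058) and VGLL3 (-0.135). With 1 array left out, ANKRD2 reached 0.026 (without control replicate 3; -0.129 to 0.026 in all), CCN4 0.022 and 0.005 (without control or MAP30 replicate 1; -0.043 to 0.022 in all), CCN6 -0.023 and -0.001 (without control replicate 3 or MAP30 replicate 2; -0.023 to 0.044 in all) and TEAD4 0.00 and -0.042 (without control replicate 1 or MAP30 replicate 3; -0.042 to 0.066 in all). None of these genes passed as deposited other than COL1A1, CCN3, VGLL3, VGLL4, LIMD1 and MRTFB. COL1A1 was also lost without control replicate 1 or 2 or MAP30 replicate 2 or 3, at 0.12 to 0.14. The cause of the changes other than the uniform scaling shifts was not tested.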
